A study of Mus musculus with 2 samples.

Results

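Tbx1, Tbx2, Tbx3, Tbx5, Tbx18 and Tbx20 are the 6 genes for T-box transcription factors whose roles in heart formation are best known, and their accessible chromatin in mouse heart is described here. They were taken by name from GENCODE M21 as 6 of 21938 protein-coding genes, with earlier results of these data known. The rule itself used no measured value. The measurements came from DNase-seq of heart tissue of 14-day-old male B6CASTF1/J mice, the F1 generation of C57BL/6J and CAST/EiJ, with 2 biological replicates that form 1 group. For replicate 1 the label speaks of 3 males, while that of replicate 2 does not state a number of animals. All animals were of one genotype and the labels name no treatment, so there was no contrast to test, and every value below is a description. The SD is the spread between the 2 samples, which may be technical.

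T-box factors bind DNA through a conserved domain that recognises a short sequence with GGTGTGA at its core, and they act in heart cells beside factors such as Nkx2-5 and Gata4. Tbx5 and Tbx20 drive genes of the working heart muscle, Tbx2 and Tbx3 repress those genes in the atrioventricular canal and, for Tbx3, in the conduction system. Tbx18 marks the epicardium and the region that forms the sinus node, and Tbx1 acts in the progenitors of the outflow tract. DNase I cuts DNA where chromatin is open, so a peak of cuts marks an accessible region, and a footprint is a short stretch inside such a region that is cut less, as when a protein covers it.

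Replicate 1 had 143122 peaks and 350009 footprints, and replicate 2 had 125118 peaks and 335568 footprints. The peak signal is the authors' value on a scale set by read depth, and in regions seen in both replicates that of replicate 1 was the higher by a median of 0.31 on the log2 scale. Marker promoters were open, meaning a peak in each replicate within 1 kb of an annotated start, for 8 of 8 cardiomyocyte, 4 of 4 endothelial, 4 of 4 fibroblast, 3 of 3 smooth muscle and pericyte, 3 of 3 sinus node and 2 of 3 epicardial genes. They were open for 1 of 3 leukocyte genes and for 0 of 3 hepatocyte and 0 of 3 lung epithelium genes. Of all protein-coding genes 68.8% were open, and with lists this short several of the counts lie near that share. In a tissue of mixed cells, fewer cells of a type and less accessibility per cell cannot be told apart.

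Regions away from promoters that both replicates had were given to whichever of the named genes had the nearest start. The sequences below are those of the strongest such region of each gene. Each is printed from the plus strand of mm10, 5′ to 3′, with capitals on the bases that lay inside footprints of both replicates.
Tbx1, chr16:18686961-18687200: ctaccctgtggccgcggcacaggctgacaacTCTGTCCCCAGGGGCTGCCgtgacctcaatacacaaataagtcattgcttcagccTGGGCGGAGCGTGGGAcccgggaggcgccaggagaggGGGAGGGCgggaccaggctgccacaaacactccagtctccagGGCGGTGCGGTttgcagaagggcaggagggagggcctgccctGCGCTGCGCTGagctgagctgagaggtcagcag
Tbx2, chr11:85844721-85844900: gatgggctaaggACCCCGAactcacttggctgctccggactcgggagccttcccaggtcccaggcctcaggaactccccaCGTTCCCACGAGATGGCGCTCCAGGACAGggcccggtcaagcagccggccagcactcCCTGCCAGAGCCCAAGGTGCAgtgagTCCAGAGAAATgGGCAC
Tbx3, chr5:119712961-119713120: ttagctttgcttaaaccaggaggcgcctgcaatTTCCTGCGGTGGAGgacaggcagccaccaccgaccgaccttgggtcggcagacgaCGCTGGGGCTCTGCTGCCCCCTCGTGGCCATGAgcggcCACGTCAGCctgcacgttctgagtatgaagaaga
Tbx5, chr5:119877301-119877540: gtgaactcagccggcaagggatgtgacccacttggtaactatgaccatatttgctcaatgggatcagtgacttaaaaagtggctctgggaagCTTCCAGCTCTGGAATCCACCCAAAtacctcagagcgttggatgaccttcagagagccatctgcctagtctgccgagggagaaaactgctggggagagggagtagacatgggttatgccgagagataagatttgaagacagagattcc
Tbx18, chr9:87708261-87708420: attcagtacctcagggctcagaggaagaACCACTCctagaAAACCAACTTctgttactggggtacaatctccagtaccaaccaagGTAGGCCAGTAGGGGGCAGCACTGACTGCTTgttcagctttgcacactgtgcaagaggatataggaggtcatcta
Tbx20, chr9:24778181-24778380: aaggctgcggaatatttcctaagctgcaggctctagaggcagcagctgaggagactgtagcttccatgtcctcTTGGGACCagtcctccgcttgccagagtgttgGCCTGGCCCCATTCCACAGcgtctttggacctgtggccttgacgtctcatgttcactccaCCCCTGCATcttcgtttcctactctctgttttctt
Footprints of both replicates covered 65 bases of the Tbx1 region, 73 of the Tbx2 region, 56 of the Tbx3 region, 25 of the Tbx5 region, 48 of the Tbx18 region and 36 of the Tbx20 region.

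Promoters were compared first. The 6 promoters ranged from a strong peak at Tbx20 to none in 1 replicate at Tbx1, and 5 of the 6 were open in both replicates. Over all protein-coding genes 68.8% were open in both, so 5 of 6 is read against that share. The 2 replicates gave 70.4% and 70% of genes with a promoter peak. The median open gene had a mean promoter signal of 6.60, with quartiles of 2.57 and 11.5.

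Tbx20, needed for chamber muscle, had the highest promoter of the 6, at 10.3 in replicate 1 and 8.41 in replicate 2 (9.35 ± 1.33, SD, n = 2). Its peak at chr9:24774221-24774500 covered the 5′ end of the gene, which lies at chr9:24718138-24774303 on the minus strand. Tbx3 followed with 8.26 and 6.54 (7.40 ± 1.22, SD, n = 2) in a peak region at chr5:119670481-119671040, over the 5′ end of the gene at chr5:119670669-119684724 on the plus strand. Both genes lay above the median open gene by their means, and Tbx3 lay just below it in replicate 2. Tbx20 was above Tbx3 within each replicate, at 10.3 against 8.26 in replicate 1 and 8.41 against 6.54 in replicate 2. The means differed by less than their SDs added together, but those SDs include the generally higher signal of replicate 1. With replicate 1 divided by the median ratio of the replicates, the values were 8.37 ± 0.06 and 6.61 ± 0.11 (SD, n = 2 each).

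Tbx2, a repressor like Tbx3, had a promoter peak of 4.72 in replicate 1 and 4.13 in replicate 2 (4.42 ± 0.41, SD, n = 2). The gene lies at chr11:85832551-85841948 on the plus strand, with its promoter region at chr11:85832441-85832820. Tbx18, at chr9:87702800-87731260 on the minus strand, had 5.26 and 3.46 (4.36 ± 1.28, SD, n = 2). The order of these 2 genes turned between replicates, and their difference was smaller than the spread of either, so they share the middle of the range.

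Tbx5, the partner of Nkx2-5 and Gata4, had a much lower promoter peak of 0.979 in replicate 1 and 0.836 in replicate 2 (0.907 ± 0.10, SD, n = 2). Both values were under every value of Tbx2, Tbx3, Tbx18 and Tbx20. The gene lies at chr5:119832668-119885219 on the plus strand and has 3 annotated starts, which read 0.743 ± 0.17 at the 5′-most, 0.714 ± 0.04 at the next and 0.907 ± 0.10 at the third (SD, n = 2 each). None of the 3 starts carried a strong peak. With the promoter narrowed to 500 bp either side, Tbx5 had no peak in replicate 2 and was no longer open, while 67.2% of all genes were.

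Tbx1 lay at the bottom, with no promoter peak in replicate 1 and a signal of 0.788 in replicate 2. That peak, at chr16:18590582-18590734, sits on the 5′ end of the gene, which lies at chr16:18580979-18590671 on the minus strand, and its lowest false discovery rate (FDR) in the authors' deposited list was 0.0039. In replicate 1 the list held 0 of the 7704 promoter bases, and in replicate 2 it held 226. A region open in both replicates lay at chr16:18591681-18591881, just upstream of the promoter window, with a signal of 0.787 and 0.627 (0.707 ± 0.11, SD, n = 2). It also lies within 1 kb of the start of the noncoding gene 4930588K23Rik, on the opposite strand, and cannot be assigned to one gene. With the promoter widened to 2 kb either side this region was counted and all 6 genes were open, against 71% of all genes. The Tbx1 value in replicate 1 was then that of this region, and in replicate 2 that of the peak at the 5′ end.

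**Figure D1:**
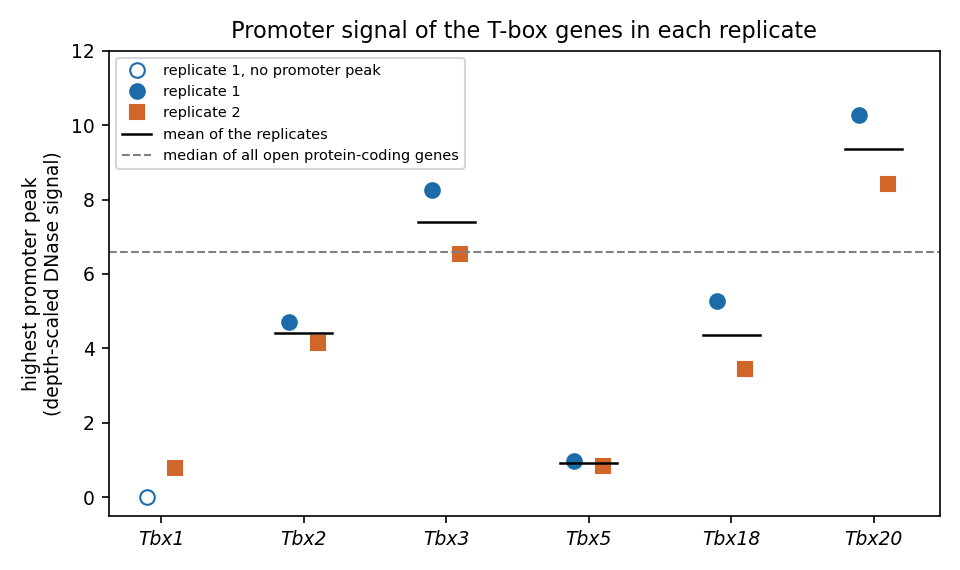
Highest peak signal within 1 kb of any annotated start of each gene, on the authors' depth-scaled signal, with circles for replicate 1, squares for replicate 2 and a bar at the mean of the 2. The open circle at 0 marks the missing Tbx1 peak of replicate 1, and the dashed line is the median of 6.60 over all open protein-coding genes; Tbx20 lies above it in both replicates.

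Ranked among all 21938 genes by the mean promoter signal of the replicates, with a missing peak counted as 0, Tbx20 stood at percentile 75.6, Tbx3 at 68.8, Tbx2 at 56.7, Tbx18 at 56.4, Tbx5 at 38.3 and Tbx1 at 32.7. Where CpG sites were counted within 500 bp of the 5′ end, the order was different. Tbx2 had 94 CpG sites and Tbx3 had 82, against a median gene with 41. Tbx20 had 58, Tbx18 had 55, Tbx1 had 47 and Tbx5 had 25. Tbx5 was thus the only member below the median gene in CpG sites, and Tbx2 was the member with the most although its promoter signal was under that of the median open gene.

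The chromatin around some starts was accessible over a far greater width than usual. Width was taken as the bases inside peaks within 5 kb of the 5′ end, for which the median gene had 329. Tbx18 had 2791 such bases in replicate 1 and 3295 in replicate 2 (3043 ± 356, SD, n = 2), which put it at percentile 99.9 of all genes. Tbx20 had 1649 and 2153 (1901 ± 356, SD, n = 2), at percentile 98.8, and Tbx3 had 1418 and 2139 (1779 ± 510, SD, n = 2), at percentile 98.4. Replicate 2 was the wider at these 3 genes.

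Tbx5 went the other way, with 1826 bases in replicate 1 and 1070 in replicate 2 (1448 ± 535, SD, n = 2), at percentile 96.7. Within 5 kb of its 5′ end lay 10 peaks in replicate 1 and 5 in replicate 2, where the median gene had 2 in each. Tbx2, with 486 and 929 bases (708 ± 313, SD, n = 2), and Tbx1, with 180 and 383 (282 ± 144, SD, n = 2), lay at percentiles 79.5 and 46.4. Width and height went together only in part. Tbx1 was lowest in both, and Tbx20 and Tbx3 were high in both. Tbx5 was wider than Tbx2 with a lower promoter signal. Tbx18 and Tbx2 had like promoter signals and differed widely in width, and the replicate values of their widths did not overlap.

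The widest single region of the 6 genes was inside Tbx18, at chr9:87729461-87731200, which spans 1740 bp from an intron to near the 5′ end and reads 1.06 in replicate 1 and 1.53 in replicate 2. A second wide region of 1140 bp lies upstream at chr9:87732421-87733560, with 0.879 and 0.633. Between them is the narrow promoter peak at chr9:87731281-87731500. A wide region of 880 bp in Tbx20, at chr9:24770081-24770960, lies upstream of the downstream pair of starts of that gene, within 1 kb of them, and reads 1.04 ± 0.05 (SD, n = 2). The pair itself lies in a narrow shared region at chr9:24769652-24769815, with 0.652 in replicate 1 and 0.633 in replicate 2. These are widths of regions merged from overlapping peaks of both replicates. The median single peak was 180 bp wide in each replicate. All regions away from promoters merged in this way and seen in both replicates had a median width of 200 bp, with quartiles of 180 and 240.

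**Figure D2:**
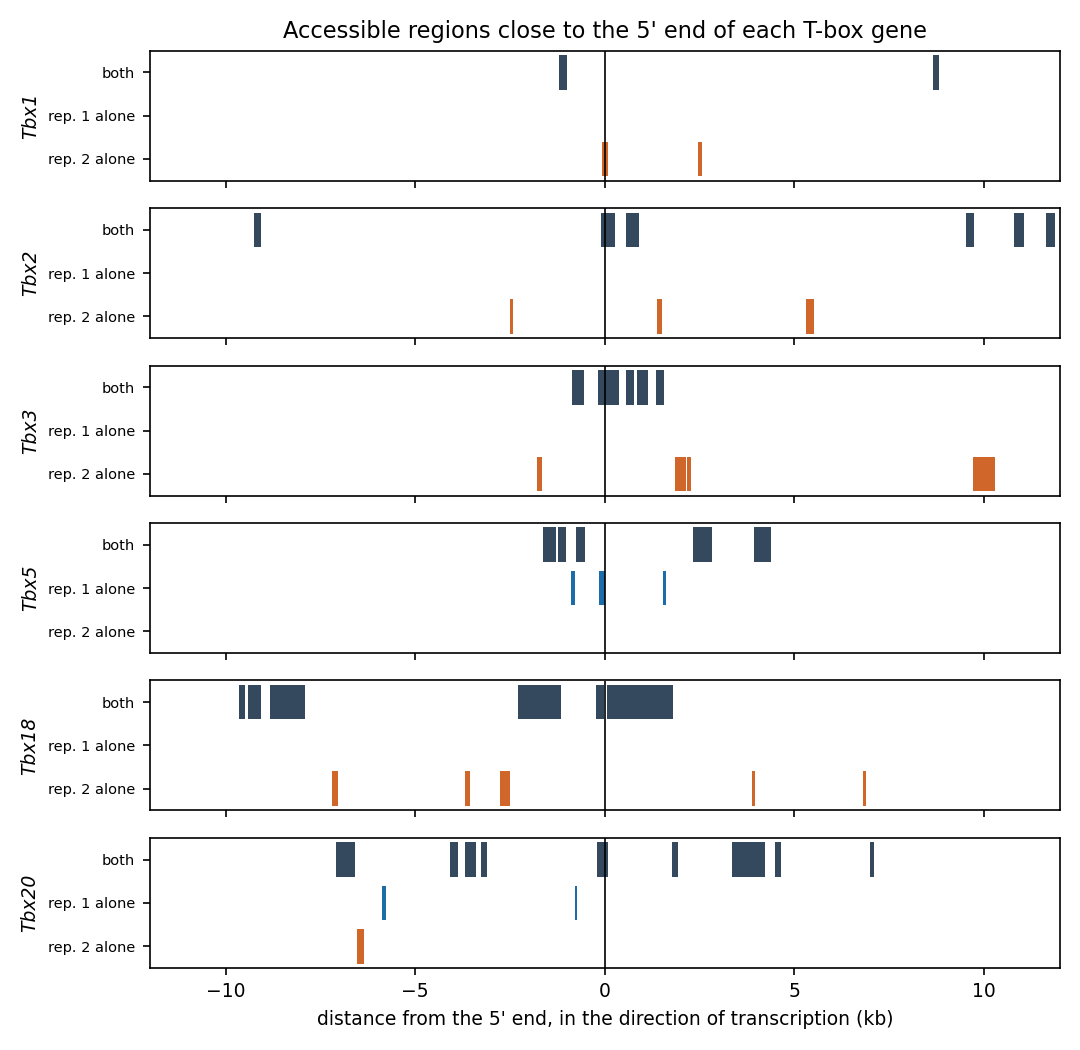
Merged accessible regions within 12 kb of the 5′ end of each gene, drawn to scale in the direction of transcription, in separate rows for regions that both replicates had, that replicate 1 alone had and that replicate 2 alone had. Tbx18 shows the wide regions of 1740 bp and 1140 bp on either side of its 5′ end, and Tbx1 has a peak of replicate 2 alone at its 5′ end.

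Sequence just upstream of RefSeq starts was available for Tbx20, Tbx18 and Tbx1, and is printed for Tbx20 and Tbx18, whose promoters had the highest signal and the greatest width. These are the 250 bases before the start in GRCm38.p6, the same assembly as mm10, read on the minus strand, which is the sense of both genes. Capitals again mark bases inside footprints of both replicates.
Tbx20, chr9:24774304-24774553: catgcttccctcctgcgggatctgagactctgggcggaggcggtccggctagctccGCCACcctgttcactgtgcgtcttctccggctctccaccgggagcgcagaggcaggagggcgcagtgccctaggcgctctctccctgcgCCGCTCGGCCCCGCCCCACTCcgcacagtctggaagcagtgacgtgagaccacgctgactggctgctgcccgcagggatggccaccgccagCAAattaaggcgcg
Tbx18, chr9:87731261-87731510: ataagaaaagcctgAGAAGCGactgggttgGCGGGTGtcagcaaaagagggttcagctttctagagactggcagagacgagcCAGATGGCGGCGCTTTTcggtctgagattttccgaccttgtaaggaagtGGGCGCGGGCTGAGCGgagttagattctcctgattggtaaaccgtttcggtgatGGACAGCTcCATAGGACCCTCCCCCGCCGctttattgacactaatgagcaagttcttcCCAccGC
Footprints of both replicates covered 29 of the Tbx20 bases and 80 of the Tbx18 bases. In Tbx20 the longest run of capitals held CCGCCCC, the reverse complement of the SP/KLF consensus GGGGCGG, at positions 156 to 162 counted from the first base printed. The same letters were upstream of a Tbx1 start, where 0 bases lay in footprints of both replicates. None of the 14 consensus sequences searched was in the Tbx18 stretch, which says only that these letters are not in this window. The SP/KLF letters were in the middle 200 bp of 4.24% of all 76373 distal regions open in both replicates.

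The wider surroundings were taken as the gene plus 100 kb either side. Peaks of the 2 replicates that overlapped by at least 1 base were merged into regions, and a region with a peak in each replicate was called shared. Distal regions were those outside 1 kb of any protein-coding start. The 6 windows held 136 regions, of which 87 were shared (64.0%), against 65.8% of all regions in the genome. The 87 divided into 14 at the genes' own promoters, 8 at promoters of other protein-coding genes and 65 distal. The windows of Tbx3 and Tbx5, neighbours on chromosome 5, overlap and have 7 regions in common, 2 of them shared between replicates.

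In windows of this size Tbx2 had the most distal regions and Tbx20, the gene with the strongest promoter, the fewest. The Tbx2 window held 19 shared distal regions, or 9.07 per 100 kb (percentile 91.7 of all genes), and that of Tbx20 held 7, or 2.73 per 100 kb (percentile 36.6). Tbx1 had 12 (5.72 per 100 kb), Tbx5 had 11 (4.36), Tbx3 had 10 (4.67) and Tbx18 had 8 (3.50). The median gene had 3.86 per 100 kb, with quartiles of 1.70 and 6.30. Of the 6, Tbx2 alone was above the upper quartile, and none was below the lower one. The order depended on the window: with 50 kb either side Tbx2 and Tbx5 had 8 each, Tbx20, Tbx3 and Tbx1 had 7 each and Tbx18 had 6, and within the gene body Tbx5 had 5 and Tbx2 had 0. It also depended on the replicate, since distal regions with a peak in replicate 1 numbered 23 at Tbx2, 19 at Tbx5, 16 at Tbx3, 13 at Tbx1, 12 at Tbx20 and 8 at Tbx18. Those with a peak in replicate 2 numbered 22 at Tbx2, 17 at Tbx3, 15 at Tbx18, 12 at Tbx5, 12 at Tbx1 and 8 at Tbx20. Tbx2 thus led in each replicate, while the last place went to Tbx18 in replicate 1 and to Tbx20 in replicate 2.

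**Figure D3:**
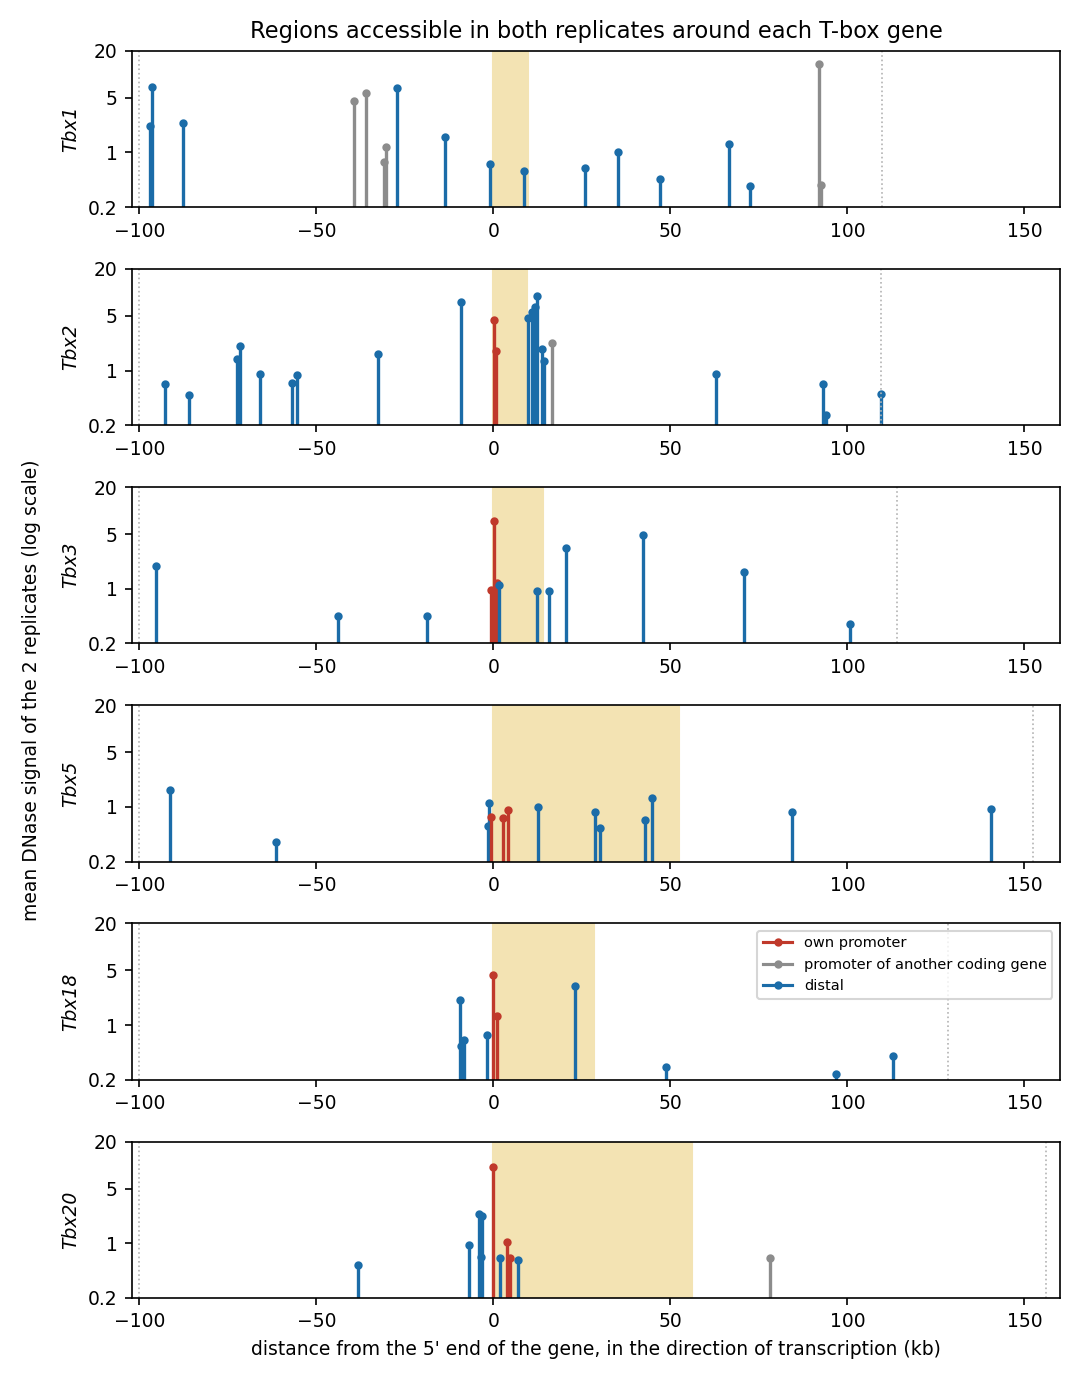
Mean signal of the 2 replicates (log scale) for each shared region against its distance from the gene's 5′ end in kb, in the direction of transcription, with the gene body shaded and the ends of the window dotted. Red marks the gene's own promoter, grey the promoters of other protein-coding genes and blue distal regions; Tbx2 shows a cluster just past its 3′ end that reaches 9.10, and no blue region of Tbx5 passes 1.65.

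The distal regions of Tbx2 included several strong ones, most of them in a cluster just past the 3′ end of the gene. Of the 19 regions, 10 lay inside other protein-coding genes, most in introns of Bcas3 upstream. The region at chr11:85844721-85844900, intergenic and 12.3 kb from the start, reached 9.96 in replicate 1 and 8.24 in replicate 2 (9.10 ± 1.22, SD, n = 2). Its neighbour at chr11:85844201-85844420 had 6.86 and 6.21 (6.54 ± 0.46, SD, n = 2). A region upstream at chr11:85823301-85823480, in an intron of Bcas3, had 8.45 and 6.45 (7.45 ± 1.42, SD, n = 2). All 3 were above the Tbx2 promoter in both replicates. The cluster also held chr11:85843341-85843620, with 5.63 and 5.50, and chr11:85842081-85842280, with 4.14 and 5.32. No peak lay at the promoter of Tbx4, another T-box gene in the same window, in either replicate.

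At Tbx3 the promoter was the strongest region of its window, and the distal regions were fewer. The intergenic region at chr5:119712961-119713120, 32.8 kb beyond the nearest annotated start, had 5.37 in replicate 1 and 4.27 in replicate 2 (4.82 ± 0.78, SD, n = 2). The region at chr5:119691221-119691380, at the start of the noncoding gene Tbx3os2, had 3.73 and 2.83 (3.28 ± 0.63, SD, n = 2). The third was at chr5:119575161-119575400, in an exon of the antisense gene Tbx3os1, with 2.28 and 1.62 (1.95 ± 0.47, SD, n = 2). These 3 differed from one another by more than their spread, since the replicate values of no pair overlapped. Tbx3os1 starts on the opposite strand within 1 kb of the Tbx3 start, and the peak there cannot be assigned to one gene.

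Tbx5 had 11 distal regions and none of them was strong. The highest at which Tbx5 held the nearest start lay in an intron at chr5:119877301-119877540, with 1.69 in replicate 1 and 0.943 in replicate 2 (1.32 ± 0.53, SD, n = 2). Next came chr5:119831441-119831640, in an exon of the noncoding gene Gm43050, with 1.06 and 1.16 (1.11 ± 0.08, SD, n = 2), and an intronic region at chr5:119845095-119845340 with 1.06 and 0.925 (0.991 ± 0.09, SD, n = 2). The replicate values of these 3 overlapped, and no order among them can be read. A stronger region of 1.94 and 1.35 at chr5:119741241-119741420 lies in the windows of both Tbx5 and Tbx3, nearer to Tbx3. The median distal signal at Tbx5 was 0.872, and that over all distal shared regions was 0.936 in replicate 1 and 0.728 in replicate 2.

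At Tbx18 a single intronic region led. It lies at chr9:87708261-87708420 and had 3.36 in replicate 1 and 3.00 in replicate 2 (3.18 ± 0.26, SD, n = 2). An upstream region at chr9:87740761-87740920 had 2.14 and 2.02 (2.08 ± 0.08, SD, n = 2), and the wide upstream region described above had a mean of 0.756 ± 0.17. The former lies within 1 kb of the start of Gm37374, a gene not annotated as protein-coding. The median distal signal was 0.585, the lowest of the 6 genes. Apart from these few, the surroundings of Tbx18 were wide and shallow.

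At Tbx20 the regions crowded upstream of the start, within introns of the noncoding gene Gm29824, which begins in the opposite direction. The region at chr9:24778181-24778380 had 2.61 in replicate 1 and 2.05 in replicate 2 (2.33 ± 0.39, SD, n = 2), and that at chr9:24777401-24777580 had 2.50 and 1.98 (2.24 ± 0.37, SD, n = 2). They do not differ beyond their spread. The third, at chr9:24780886-24781400, was weaker, with 0.830 and 1.07 (0.952 ± 0.17, SD, n = 2). Of the 11 shared regions in this window, 9 lay within 10 kb of an annotated start of Tbx20 and only 2 lay farther away.

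Tbx1 was the reverse of Tbx20, with a weak promoter and strong regions far from it. The intergenic region at chr16:18686961-18687200, at -96.4 kb from the nearest start (negative values are upstream), had 7.50 in replicate 1 and 6.37 in replicate 2 (6.94 ± 0.79, SD, n = 2). That at chr16:18617761-18617940, at -27.2 kb, had 7.33 and 5.99 (6.66 ± 0.94, SD, n = 2), which does not differ from the former beyond the spread. The third, at chr16:18678401-18678560, had 2.65 and 2.07 (2.36 ± 0.41, SD, n = 2). Of the 18 shared regions in the window 2 lay within 10 kb of a start of Tbx1, and 6 lay at promoters of other protein-coding genes. The strongest of all, at chr16:18498681-18498880, belongs to the promoter of Gnb1l and Rtl10 (13.6 ± 1.63, SD, n = 2), so a distance to Tbx1 does not assign a region to it.

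**Figure D4:**
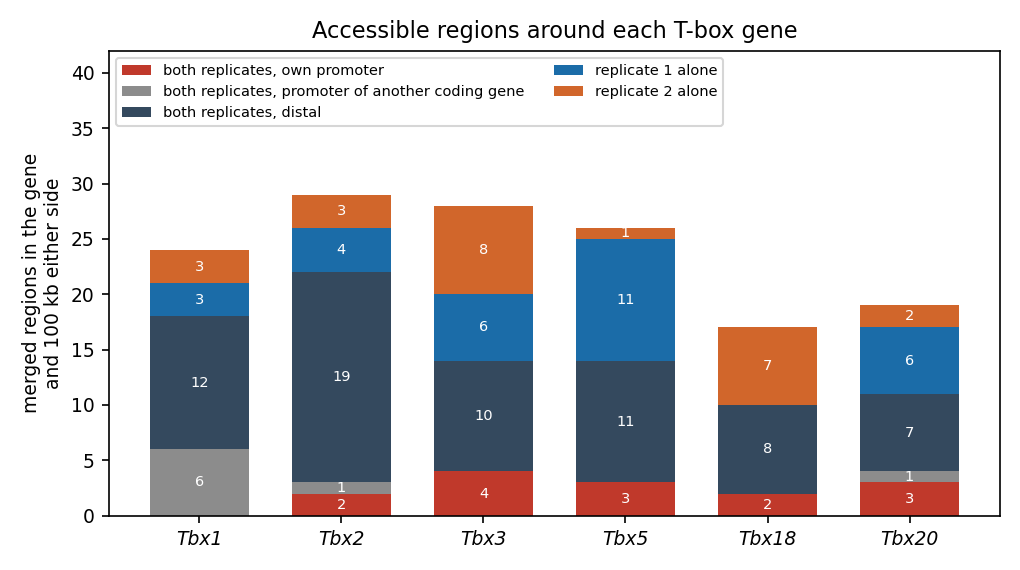
Number of merged regions in the gene and 100 kb either side, stacked by whether both replicates had a peak (own promoter, promoter of another protein-coding gene, distal) or 1 replicate alone. Tbx2 has the most distal shared regions (19), Tbx5 the most of replicate 1 alone (11) and Tbx3 the most of replicate 2 alone (8).

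The replicates differed from gene to gene in the regions that only 1 of them had. The windows held 25 regions of replicate 1 alone and 24 of replicate 2 alone, so that replicate 1 gave 51.0% of them, while over the genome it gave 66.3% (35993 against 18286). The Tbx5 window had 11 of replicate 1 alone and 1 of replicate 2 alone, and Tbx20 had 6 and 2. The Tbx18 window had 0 and 7, and Tbx3 had 6 and 8. Tbx2 had 4 and 3, and Tbx1 had 3 and 3. These were weak regions, with a median signal of 0.518 in replicate 1 and 0.483 in replicate 2.

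Close to the genes the counts were as follows. Within 10 kb of a start, Tbx3 had 8 regions of replicate 2 alone and 0 of replicate 1 alone, Tbx18 had 5 and 0, Tbx2 had 3 and 0, and Tbx1 had 2 and 0. Tbx5 had 0 of replicate 2 alone and 3 of replicate 1 alone, and Tbx20 had 1 and 3. The counts are small and describe these samples only. Over the genome, 62% of the regions of 1 replicate alone within 10 kb of a protein-coding start were of replicate 1. Peak bases near the 5′ end did not always go the same way, since at Tbx20 they were more in replicate 2. Among the marker genes, the summed promoter signal of the 3 sinus node genes was 4.33 in replicate 1 and 4.66 in replicate 2, with Hcn4 at 0.894 and 1.26, Isl1 at 1.09 and 1.34 and Shox2 at 2.34 and 2.06. The sum over the 8 cardiomyocyte genes was 39.2 and 32.3, and that over the epicardial genes was 3.87 and 2.98, with no peak at Upk3b. The part of the cell types in the regions of 1 replicate alone was not tested.

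In the 87 shared regions the signal of the 2 replicates was close. Replicate 1 was the higher in 65 of them (74.7%), against 80.7% of all shared regions of the genome. The log2 ratio of the replicates, replicate 1 over replicate 2, had a median of 0.19 with an SD of 0.34 over regions, and the largest fold between replicates was 1.90. By gene this median ran from 0.16 at Tbx20 and 0.17 at Tbx18 to 0.26 at Tbx5 and 0.33 at Tbx3, with Tbx2 at 0.19 and Tbx1 at 0.20. Only Tbx3 thus lay above the 0.31 of all shared regions, and by little.

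**Figure D5:**
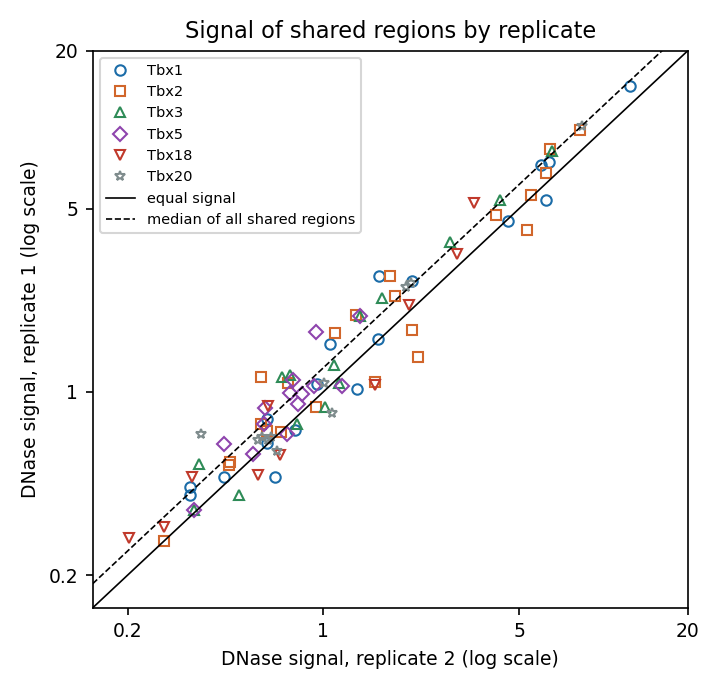
Signal of each shared region in replicate 1 against replicate 2, both on a log scale, with a symbol for each gene (regions in the windows of both Tbx3 and Tbx5 carry both), a solid line at equal signal and a dashed line at the median ratio over all shared regions. The 87 regions follow the lines, with 65 above equal signal, and the largest fold between replicates is 1.90.

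Footprints were counted in the same windows. Tbx2 had the most, 75 in replicate 1 and 83 in replicate 2, followed by Tbx1 with 57 and 62, Tbx3 with 47 and 56, Tbx5 with 46 and 33, and Tbx20 with 40 and 40. Tbx18 had 25 in replicate 1 and 55 in replicate 2, the largest gap between replicates. Per kb of peak, Tbx18 had 4.50 and 7.57 footprints, and the other genes had between 8.46 (Tbx5, replicate 2) and 13.7 (Tbx1, replicate 2). Peaks in the Tbx18 window thus held fewer footprints per kb than those of the other genes in each replicate. Of its wide regions, that of 1740 bp held 0 in replicate 1 and 10 in replicate 2. That of 1140 bp held 6 and 9.

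Over the 6 windows there were 280 footprints in replicate 1 and 327 in replicate 2. Of these, 129 and 135 were covered by footprints of the other replicate over 50% of their length or more. Over the genome 49.6% of the footprints of replicate 1 and 54% of those of replicate 2 were covered so. By gene, the share in replicate 1 was highest at Tbx1 (61.4%) and lowest at Tbx5 (26.1%). In replicate 2 it was again highest at Tbx1 (59.7%), and lowest at Tbx18 (29.1%). Tbx5 and Tbx20 each had 12 such footprints in either replicate. Footprints overlapped a peak for between 88% (Tbx18) and 97.8% (Tbx5) in replicate 1, against 88.6% of all, and for between 76.4% (Tbx18) and 95% (Tbx20) in replicate 2, against 86.9% of all.

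The T-box core GGTGTGA was then looked for in the footprints, with 10 bp either side and on both strands. It was in 1 of 280 footprints in replicate 1 (0.357%, exact Clopper-Pearson 95% interval 0.00904% to 1.97%) and in 1 of 327 in replicate 2 (0.306%, 0.00774% to 1.69%), against 0.313% and 0.297% of all footprints. The intervals cover counting error only. Both hits were the same place, chr16:18498735-18498741 in the Tbx1 window, inside the promoter peak of Gnb1l and Rtl10. The core is in capitals below, with 10 bases either side on the plus strand.
T-box core at the Gnb1l promoter: gcgctggcgcGGTGTGAccctctgcga
No footprint in the windows of Tbx2, Tbx3, Tbx5, Tbx18 or Tbx20 held these letters. Among the 65 distal regions 3 held the core anywhere in their length (4.62%, against 3.25% of all distal shared regions), at Tbx3, Tbx5 and Tbx18. None of the 3 matches lay inside footprints of both replicates, but only 0.103% of all distal shared regions held such a match.

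The consensus of CTCF, a factor that binds at the boundaries of chromatin domains, was the one most often inside footprints among the 5 set against them. Its 12-letter core, searched on either strand, was in 14 of the 65 distal regions (21.5%), against 18.0% of all distal shared regions. The match lay inside footprints of both replicates in 6 of the 65 (9.23%), against 10.6% of all and 37.7% of the strongest 5% of all, those with a signal of 4.42 or more. The strongest distal regions of Tbx2, Tbx3 and Tbx18 were among these 6, and in the sequences printed above all 12 letters of the match are capitals. They read CCACGAGATGGC at positions 86 to 97 of the Tbx2 region, GCCCCCTCGTGG at positions 104 to 115 of the Tbx3 region, where the match is on the minus strand, and CCAGTAGGGGGC at positions 91 to 102 of the Tbx18 region. The other 3 were at chr5:119691221-119691380 and chr5:119741241-119741420 near Tbx3 and at chr16:18678401-18678560 near Tbx1. A match of letters is a description and shows no binding.

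Of the other 4 consensus sequences set against footprints, the MEF2 letters lay inside footprints of both replicates in 1 distal region. That is 1.54%, against 0.191% of all distal shared regions, and rests on this 1 match. The T-box core, GATA and AP-1 letters did so in none, against 0.103%, 0.0236% and 0.223% of all. With 65 regions, shares this small leave a count of 0 uninformative. The letters AGATAAG, the GATA consensus, were in 2 of the 65 distal regions (3.08%, against 2.90% of all). One of these was the strongest Tbx5 region, at positions 215 to 221 of the sequence above, where no letter is a capital. The letters searched for MEF2 left the bases in their middle free, so a match need not be a MEF2 site. They were in 3 of 65 distal regions (4.62%, against 3.34%). The match in the region upstream of Tbx2 at chr11:85823301-85823480 lay inside footprints of both replicates. The AP-1 consensus TGANTCA was in 8 of 65 (12.3%, against 9.64%) and in 0 of 65 inside footprints of both. The E-box CAGCTG was at positions 43 to 48 of the strongest Tbx20 region, outside the capitals, and, not counted against footprints, was in the middle 200 bp of 18.5% of the 65 regions and of 24.6% of all.

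Of 11 further members of the family, 6 were open in both replicates, against 68.8% of all protein-coding genes, and 5 (Tbx4, Tbx10, Tbx19, Tbx21 and T) had no promoter peak in either. Mga, which joins a T-box to a second DNA-binding domain and acts in many cell types, had 15.9 in replicate 1 and 14.9 in replicate 2 (15.4 ± 0.68, SD, n = 2), above all 6 heart genes. Tbx6, of the early mesoderm, had 5.09 and 3.78 (4.44 ± 0.93, SD, n = 2), in the range of Tbx2 and Tbx18. Eomes (0.987 ± 0.03), Tbx15 (0.889 ± 0.08), Tbr1 (0.502 ± 0.12) and Tbx22 (0.211 ± 0.003) were low (SD, n = 2 each), and the replicate values of Eomes and Tbx15 overlapped those of Tbx5. The summed level of the 11 genes was 23.4 in replicate 1 and 21.5 in replicate 2.

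Of 21 partners and targets of the heart T-box factors, 19 were open in both replicates, against 68.8% of all protein-coding genes, and Scn10a, a sodium channel gene, and Bmp10, a growth factor of the atria, had no promoter peak. Among the partners, Gata4 had 7.43 in replicate 1 and 6.51 in replicate 2, Nkx2-5 had 2.55 and 2.17, and Tead1, a factor of muscle enhancers, had 15.2 and 13.1, the highest mean of the list. Among the targets, Gja5, the connexin gene of fast conduction, had 7.79 and 5.14, and Nppa, the atrial peptide gene, had 0.397 and 0.382. Id2 (13.7 ± 3.19), which was above Tead1 in replicate 1, and Atp2a2 (12.5 ± 0.97), the calcium pump gene, were also high (SD, n = 2 each). The median over the 19 open genes was 3.56, below the 6.60 of all open genes. Nkx2-5 and Nppa lay under the promoter signal of Tbx20, Tbx3, Tbx2 and Tbx18 in both replicates.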

How the data were processed

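DNase-seq peaks and footprints of 2 heart samples were used, each on mm10. Per the file headers, every list was made by the authors from 1 replicate's filtered alignment. No source used here names the callers, gives read totals or says how CAST/EiJ reads were mapped, so the depth per sample is unknown and a signal carries no counting interval. The deposited peak signal is scaled by read depth, by a formula not stated. The deposited FDR list holds adjusted p-values for runs of bases under 0.05. Of the footprint lists deposited, the positions alone were used, since their other column is constant.

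The larger of 2 peak sets was the main one. Regions were merged and counted with Python 3.11.15 and numpy 2.4.6, sequences read with pysam 0.24.0, and the interval code was tested on simulated data. A gene's promoter value is its highest peak within 1 kb of any GENCODE M21 start. The 14 consensus sequences were searched on both strands, in whole regions where footprints were asked for and otherwise in the middle 200 bp. The RefSeq promoter table of GRCm38.p6 matched 3 of the 6 genes. Members, lists and settings were chosen with earlier results of these data known. All 6 members were named, with the 3 strongest shared distal regions nearest to each, the open genes of the T-box list, and of the partners and targets the 3 highest and those with no promoter peak; other genes and regions were named after their values were seen. With 1 group, no test was made.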

Additional observations from a re-analysis of the deposited data

How the results depend on the processing

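No paired analysis was possible because there is 1 group. The count of shared regions (87) was 22 in the gene bodies alone and 55 with the smaller peak set. The count of distal ones (65) was 43 with 50 kb either side, 11 in the gene bodies, 40 with the smaller peak set and 24 among regions above the median signal. The last 4 settings keep fewer regions by construction. With 1 replicate left out, promoters with a peak were 5 to 6, regions 111 to 112, and distal regions 84 to 84. Footprints were 280 to 327 in 1 replicate alone, against a mean of 132 that were covered by the other. The share of footprints with the T-box core (0.331% as the mean of the replicates) was 0.306% to 0.357% with 1 replicate left out, 0.758% among footprints shared by both, and 0% without the 10 bp on either side or with AGGTGTGA, each resting on at most 1 footprint a replicate. Of single-gene values that could be recomputed, 35 of 39 for promoter signal stayed within the spread between replicates. Leaving out 1 of the 2 replicates keeps a promoter signal within that spread by construction. At Tbx2, Tbx3, Tbx18 and Tbx20 the other promoter windows and the smaller peak set returned the same value, so this tally shows little. Of the counts, 32 of 48 for shared regions, 30 of 54 for distal regions and 17 of 30 for footprints stayed within 1.5 times. Tbx5 at 500 bp has no value, and neither has Tbx1 in most settings. Dividing replicate 1 by the median ratio of replicate 1 to replicate 2 gave promoter signals of 8.37 at Tbx20, 6.61 at Tbx3, 3.97 at Tbx2, 3.86 at Tbx18 and 0.814 at Tbx5, in the same order. With 2 samples and unknown depth, small differences in signal cannot be separated from spread, and weak regions of 1 replicate may be missed in the other.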

Other observations

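Several starts of noncoding genes share peaks with the T-box genes or lie beside them. 2610027K06Rik starts on the opposite strand within 1 kb of the Tbx2 start, so the same peak gives its value (4.42 ± 0.41, SD, n = 2). Gm29824 starts upstream of Tbx20 with 2.24 ± 0.37, Tbx3os2 past the end of Tbx3 with 3.28 ± 0.63, and Gm43050 upstream of Tbx5 with 1.11 ± 0.08 (SD, n = 2 each). Within the Tbx2 window, Bcas3os2 had 0.703 ± 0.002. Upstream of Tbx1, 4930588K23Rik had 0.707 ± 0.11 (SD, n = 2). At Tbx18, 2 genes not annotated as protein-coding share its regions. D030062O11Rik starts within 1 kb of the 1740 bp region (1.30 ± 0.33), and Gm37374 had 2.08 ± 0.08 (SD, n = 2 each).

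The signal and the FDR of a peak did not rank regions alike. The strongest distal region of Tbx2 had a signal of 9.96 in replicate 1 and a lowest FDR of 5.16e-24, and that of Tbx3 had a signal of 5.37 with a lowest FDR of 8.29e-70. In replicate 2 the signals were 8.24 and 4.27, and the lowest FDRs were 5.25e-34 and 2.34e-46.

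Bases under an FDR of 0.05 covered 2147 of the 2764 promoter bases of Tbx18 in replicate 1 and 2134 in replicate 2, and 1008 and 1485 of the 2001 promoter bases of Tbx2.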
